A study of Mus musculus with 4 samples.

Results

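The genes described here are 41 members of the Wnt pathway, 12 Wnt ligands, 9 Frizzled receptors, 2 co-receptors, 5 secreted inhibitors, 3 Lgr receptors, 3 R-spondins, 2 ubiquitin ligases, 1 target gene and 4 nuclear effectors. They were chosen by gene symbol from the 18193 genes with a probe set of their own on the array, and each was read from its probe set with the highest mean. All 41 had such a probe set. Of these, 24 passed a filter on dim signal (above the median of an array on at least 2 of the 4 arrays) and were tested, and 17 were too dim.

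The arrays measured RNA of sorted neurons from retinas of mixed C57Bl6 x CD1 mice, killed at postnatal day 6. Every sorted cell carried CFP, the fluorescent protein of the MP transgene, so no transgene-free group was measured. The progeny came from carrier males and females without the transgene. MP amacrine cells were CFP-positive cells that bound the VC1.1 antibody, and MP bipolar cells were CFP-positive cells without it, taken after VC1.1-positive cells had been depleted on a magnetic column. Each group had 2 replicates from different litters, of about 1000 cells each, and the labels do not name the promoter that drives the transgene. The labels do not say how many retinas were pooled for a replicate.

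Wnt proteins are secreted, lipid-modified ligands that bind Frizzled receptors. Together with Lrp5 or Lrp6 they stabilise beta-catenin, which acts on target genes with Tcf and Lef factors. Other Wnts act without beta-catenin, through Frizzleds and other receptors such as Ryk and Ror. R-spondins bind Lgr4, Lgr5 or Lgr6 and remove the ubiquitin ligases Znrf3 and Rnf43, which otherwise clear Frizzleds from the cell surface. In the retina the pathway is known from eye patterning, from the ciliary margin and from the growth of retinal vessels.

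Promoter sequence was available from RefSeq (GRCm38.p6) for 26 of the 41 genes, at 35 start sites. Of the 6 genes that differed between the groups, Fzd5 and Wnt5b were among them, and Wnt5a, Lgr5, Fzd3 and Dkk3 were not. The 250 bases before a start are shown for Fzd5 (chr1:64737751-64738000, minus strand), which was higher in amacrine cells, and for the most upstream and the most downstream of the 3 Wnt5b starts (chr6:119544348-119544597 and chr6:119449387-119449636, minus strand), the gene that was higher in bipolar cells. Capitals mark the Tcf and Lef core CTTTGA and the E-box CAGNTG, each searched on both strands.
Fzd5: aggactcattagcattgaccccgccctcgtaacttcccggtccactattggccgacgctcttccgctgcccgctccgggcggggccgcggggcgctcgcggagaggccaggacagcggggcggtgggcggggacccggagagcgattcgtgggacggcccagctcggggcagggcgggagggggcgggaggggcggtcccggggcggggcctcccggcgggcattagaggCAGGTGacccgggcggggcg
Wnt5b, upstream start: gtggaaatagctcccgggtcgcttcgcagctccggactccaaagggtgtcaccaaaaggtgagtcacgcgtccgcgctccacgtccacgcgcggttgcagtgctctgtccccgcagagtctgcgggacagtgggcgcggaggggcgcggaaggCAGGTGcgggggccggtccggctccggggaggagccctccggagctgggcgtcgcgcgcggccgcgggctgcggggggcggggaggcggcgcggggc
Wnt5b, downstream start: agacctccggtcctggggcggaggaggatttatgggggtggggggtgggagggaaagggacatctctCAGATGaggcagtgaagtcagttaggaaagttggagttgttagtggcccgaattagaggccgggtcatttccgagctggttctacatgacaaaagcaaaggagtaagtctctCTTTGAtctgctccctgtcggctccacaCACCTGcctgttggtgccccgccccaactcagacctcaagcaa
The downstream Wnt5b window held 1 CTTTGA match, which began 71 bases before the start, and 2 CAGNTG matches, and the other windows shown held 1 CAGNTG match each. CTTTGA was found at 5 of the 35 start sites (14.3%), against 13.8% of all 32851 promoters in the table. CAGNTG was found at 9 of the 35 (25.7%), against 44.8% of all promoters. These matches are a description of the letters in the windows.

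The median probe set intensity was 44.5 to 47.2 on the 4 arrays. MP amacrine replicate 2 stood apart in the Gapdh control probe sets, whose 3-prime signal exceeded the 5-prime signal by 3.21 on the log2 scale, compared with 1.78 to 2 for the remaining arrays. The labels fitted most markers: 7 of 8 tested amacrine markers were called in the amacrine direction, and 5 of 6 tested bipolar markers in the bipolar direction. The bipolar marker Otx2 nevertheless had intensities of 1523 and 1646 on the amacrine arrays, against 3718 and 3848 on the bipolar arrays. Cabp5, the other defining bipolar marker with a probe set, was lower on the amacrine arrays, with 259 and 29.4 against 3251 and 3428. Several rod photoreceptor markers were bright on every array. The list summed to 9123 to 13944 in amacrine and 9240 to 11183 in bipolar samples, and 1 of 6 tested was called, higher in amacrine cells. The defining rod marker Nrl had 2028 and 1172 against 891 and 850 and did not pass (adjusted p = 0.0844, limma). Gnat1, another defining rod marker, was too dim to be tested, with 17.6 and 18.7 against 24.95 and 120. The small number of arrays, 2 in each group, limits how precise any value here can be.

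Of the 24 tested genes, 6 differed with an adjusted p below 0.05 by limma (2 arrays in each group), of which 5 were higher in MP amacrine samples and 1 in MP bipolar samples. Over all 11583 tested genes 13.5% were called, 6.54% higher in amacrine and 6.92% higher in bipolar cells. The groups did not overlap for 15 of the 24 genes, and for 53.3% of all tested genes. The 5 were Wnt5a, Fzd3, Fzd5, Dkk3 and Lgr5, and the 1 was Wnt5b. The median log2 fold change, amacrine minus bipolar, was 0.21 over the 24 and -0.03 over all tested genes. Wnt5a, Wnt5b, Fzd5, Lgr6 and Lef1 passed the filter on dim signal through 1 group only, so the genes tested were partly selected for a difference. In sorted pools, fewer cells with a transcript and less of it per cell cannot be told apart. Fold changes are differences of log2(intensity + 16), which understates the change of dim genes.

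**Figure D1:**
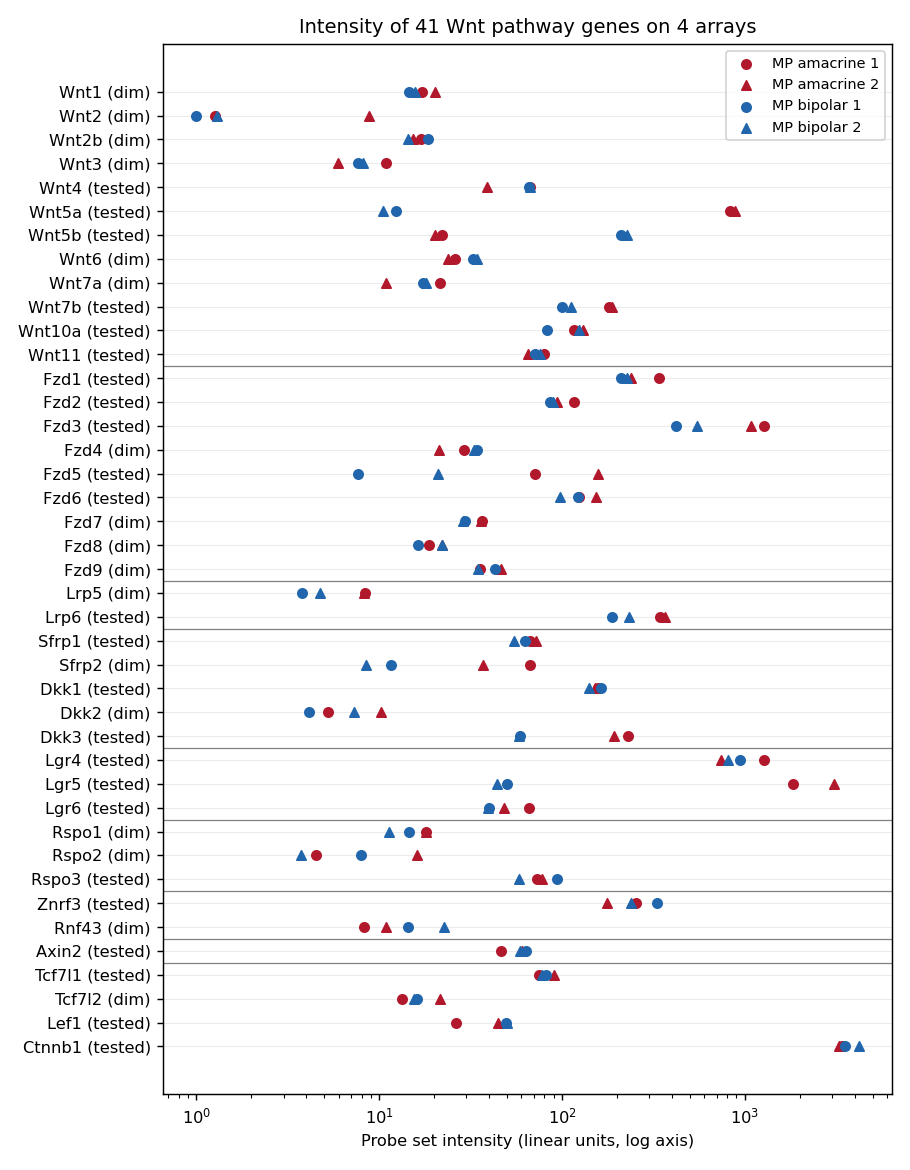
Intensity (linear units on a log axis) of the 41 genes on the 4 arrays, 1 probe set per gene, grouped by role from Wnt ligands at the top to nuclear effectors at the bottom. Red marks MP amacrine and blue MP bipolar arrays, circles replicate 1 and triangles replicate 2, and Wnt5a and Lgr5 show the widest gaps.

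**Figure D2:**
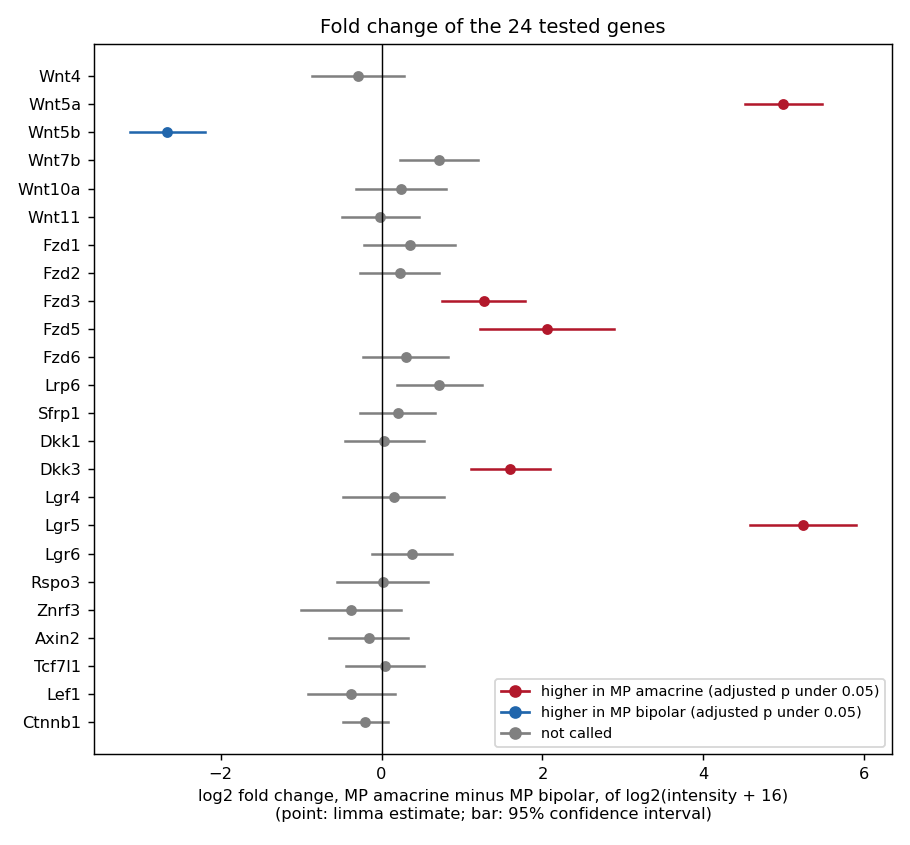
Log2 fold change (MP amacrine minus MP bipolar, on the log2(intensity + 16) scale) of the 24 tested genes, with the 95% confidence interval of the limma fit. Of the 6 coloured genes 5 lie to the right of 0 and Wnt5b lies to the left.

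Among the Wnt ligands, the closely related Wnt5a and Wnt5b differed in opposite directions. Wnt5a, a ligand best known for signalling without beta-catenin, had intensities of 832 and 888 in amacrine samples, against 12.4 and 10.5 in bipolar samples. Both amacrine arrays stood far above both bipolar arrays, which were close to the bottom of the scale. The log2 fold change was 5.0 (SE 0.21, adjusted p = 1.45e-05, limma). The size depends on the offset, since it was 6.12 with an offset of 1 and 3.61 with an offset of 64. Of the 4 Wnt5a probe sets 3 passed the filter, and the others gave 3.28 and 0.60. Averaged over its probe sets the gene gave 2.37 (adjusted p = 3.4e-04, limma).

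Wnt5b had intensities of 21.9 and 20.1 in amacrine samples, against 211 and 225 in bipolar samples, so here the bipolar arrays were the high ones and the groups did not overlap. Its log2 fold change was -2.66 (SE 0.20, adjusted p = 1.12e-04, limma), or -3.32 with an offset of 1 and -1.73 with an offset of 64. This result rests on 1 probe set, whose suffix, _x_at, marks probes that can match other transcripts. The other probe set of Wnt5b was dim on every array, at 1.5 to 7.07, and was not tested. Averaged over both probe sets the gene gave -1.43 (adjusted p = 0.00304, limma).

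Wnt7b, a ligand known to signal to brain vessels through beta-catenin, had intensities of 180 and 186 on the amacrine and 99.9 and 112 on the bipolar arrays. The groups did not overlap, but the difference did not pass the test (log2 fold change 0.71, SE 0.21, adjusted p = 0.0641, limma), and its 2nd probe set lay below the filter. The remaining tested ligands gave -0.29 for Wnt4, 0.24 for Wnt10a and -0.02 for Wnt11, with adjusted p between 0.546 and 0.975 (limma). Their arrays overlapped between the groups. Wnt4 was lower on MP amacrine replicate 2, at 38.8, than on the other 3 arrays, at 65.9 to 67.0. Wnt1, Wnt2, Wnt2b, Wnt3, Wnt6 and Wnt7a were too dim to be tested, and no array gave more than 34.4 for any of them.

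Of the Frizzleds, the Wnt receptors with 7 membrane passes, Fzd3 and Fzd5 were higher in MP amacrine cells. Fzd3, which is known from axon guidance, had intensities of 1278 and 1087 in amacrine samples, against 418 and 551 in bipolar samples. The lower amacrine array was above the higher bipolar array, and the log2 fold change was 1.27 (SE 0.22, adjusted p = 0.00694, limma). Of 6 Fzd3 probe sets 4 passed the filter, and the others gave 0.48, 0.76 and -0.05. Averaged over all 6 probe sets the difference did not pass (0.51, adjusted p = 0.107, limma).

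Fzd5, a receptor known from the developing eye, had intensities of 71.0 and 157 in amacrine samples, against 7.62 and 20.9 in bipolar samples. The groups did not overlap, and within each group the arrays differed by a larger ratio than for Wnt5a or Fzd3. The log2 fold change was 2.06 (SE 0.36, adjusted p = 0.00688, limma). Without the filter on dim probe sets, with 18193 genes tested and 4.31% called, its adjusted p was 0.0862 (limma). With an offset of 1 the value was 2.96 and with an offset of 64 it was 1.15. The 2nd Fzd5 probe set was dim on all arrays, at 1.0 to 10.5, with the bipolar arrays above the amacrine arrays.

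Fzd1, Fzd2 and Fzd6 did not pass the test, with log2 fold changes of 0.35, 0.22 and 0.30 and adjusted p between 0.456 and 0.602 (limma). In each of them both amacrine arrays lay above both bipolar arrays, as they did in 24.2% of all tested genes. Their 95% confidence intervals lay between -0.27 and 0.92. Fzd4, the receptor of the vessel ligand norrin, was too dim to be tested, with 29.1 and 21.3 on the amacrine and 34.2 and 32.9 on the bipolar arrays. Fzd7, Fzd8 and Fzd9 were dim as well, at 16.3 to 46.3.

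The co-receptor Lrp6, which pairs with Frizzleds in the beta-catenin branch, had intensities of 344 and 364 in amacrine samples, against 187 and 233 in bipolar samples. The amacrine arrays were both higher, but the difference of 0.72 on the log2 scale (SE 0.23) did not pass (adjusted p = 0.0831, limma). Lrp5 was too dim to be tested, at 3.79 to 8.31.

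**Figure D3:**
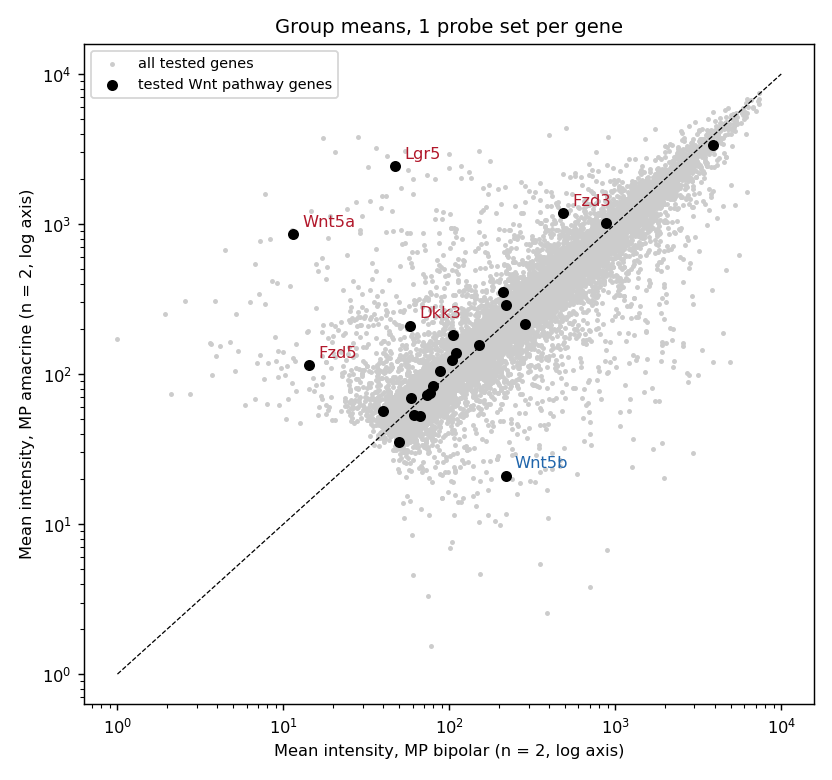
Mean intensity in MP amacrine cells (vertical, log axis) against MP bipolar cells (horizontal, log axis), n = 2 each, for all 11583 tested genes in grey and the 24 tested Wnt pathway genes in black. The dashed line marks equal means, with 5 named genes above it and Wnt5b below it.

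Dkk3, a secreted protein of the Dickkopf family that is also known from Müller glia, was higher in MP amacrine cells. Its intensities were 228 and 192 in amacrine samples, against 58.6 and 57.8 in bipolar samples. The groups were well apart, and the log2 fold change was 1.60 (SE 0.21, limma adjusted p = 0.00174). The 2nd Dkk3 probe set went the same way at 1.79, with 67.3 and 180 on the amacrine arrays against 16.4 and 26.1. Sfrp2, which binds Wnts outside the cell, was not tested because only 1 array passed the median, but both amacrine arrays, at 66.5 and 37.0, were above both bipolar arrays, at 11.7 and 8.46. Without the filter its log2 fold change was 1.35 and its adjusted p 0.072 (limma).

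Some genes on the marker lists of other retinal cell types were called as well, more of them in the amacrine than in the bipolar direction. Over all tested genes 6.54% were called in the amacrine and 6.92% in the bipolar direction. Among 8 tested Müller glia markers, 3 were called in the amacrine direction (Slc1a3, Vim and Crym) and 1 in the bipolar direction (Car2), with summed intensities of 4262 to 4599 in amacrine and 2405 to 3002 in bipolar samples. The defining marker Glul had 2103 and 1870 against 1594 and 1937, and Rlbp1 had 80.9 and 156 against 20.8 and 58.8. Aqp4 was dim, at 4.72 to 37.8. Of 3 tested progenitor markers 1 was higher in amacrine cells, and the list summed to 469 and 1047 on the amacrine and 182 and 146 on the bipolar arrays. On the amacrine arrays most of that sum came from Hes5, with 203 and 352 against 9.3 and 22.1, and Sox2, with 73.6 and 395 against 34.4 and 20.3. Of these, Hes5 was the one called. The defining progenitor marker Fgf15 had 49.9 and 70.6 against 19.0 and 33.9 and did not pass (adjusted p = 0.0683, limma). Mki67 and Top2a were too dim to be tested, at 29.8 to 67.8 on the amacrine and 10.4 to 19.7 on the bipolar arrays. Of 4 tested horizontal cell markers 1 was called in the amacrine direction, Prox1 with 630 and 1522 against 110 and 69.7, and the list summed to 1750 and 2285 against 656 and 475. Its defining markers Onecut1 and Lhx1 had 48.2 and 54.1 against 30.4 and 38.2, and 51.2 and 3.79 against 10.6 and 9.52. Of 5 tested microglia markers Csf1r was called in the amacrine direction, and the list summed to 1258 and 4063 against 1658 and 454. The defining marker C1qa had 61.4 and 122 against 74.9 and 12.8 and did not pass, and Aif1 and Cx3cr1 were too dim to be tested. Of 5 tested cone markers Gnat2 was called in the amacrine direction, with 548 and 561 against 239 and 243. Opn1sw, another defining cone marker, had 215 and 49.9 against 420 and 372 and did not pass. Of 5 tested vessel markers Pdgfrb, a pericyte gene, was called in the amacrine direction, with 66.0 and 69.6 against 4.01 and 9.56. The defining marker Cdh5 had 50.15 and 54.9 against 38.4 and 40.1 and did not pass, and Pecam1 and Cldn5 were too dim. Of 3 tested pigment epithelium and ciliary margin markers Dct was called in the amacrine direction. Of 5 tested ganglion cell markers Thy1 was called in the bipolar direction, with 806 and 1455 against 2462 and 3415. The other 4 had positive fold changes and did not pass. Among these, the defining marker Pou4f1 had 157 and 88.8 against 60.3 and 36.8 (adjusted p = 0.0528, limma). Nefl had 1102 and 87.5 against 68.6 and 45.7, and Nefm 1631 and 136 against 47.7 and 35.0, so both were highest on MP amacrine replicate 1. The defining marker Rbpms was too dim to be tested. The part of these cells in the results for the Wnt pathway genes was not tested.

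The other secreted inhibitors did not differ detectably. Dkk1, which blocks Lrp5 and Lrp6, had intensities of 158 and 152 against 162 and 141 (log2 fold change 0.03, 95% confidence interval -0.46 to 0.52). Sfrp1, which binds Wnts, gave 0.20 (adjusted p = 0.63, limma). Dkk2 was too dim to be tested, at 4.12 to 10.2.

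The Lgr receptors differed member by member. Lgr5, a receptor for R-spondins and a known stem cell marker of the intestine, had with Wnt5a the largest fold changes of the 24 genes, and its change was already known when the genes were chosen. Its intensities were 1827 and 3055 in amacrine samples, against 49.98 and 44.1 in bipolar samples. The 2 groups lay far apart, although the amacrine arrays also differed from each other. The log2 fold change was 5.24 (SE 0.28, adjusted p = 2.42e-05, limma), and 4.45 with an offset of 64. That was above the value for Wnt5a at offsets of 16 and 64, but below it with an offset of 1 (5.62 against 6.12) and without MP amacrine replicate 2 (4.87 against 4.95). A 2nd Lgr5 probe set went the same way at 2.15, with 160 and 467 on the amacrine arrays against 50.5 and 48.7. In both probe sets MP amacrine replicate 2 was the higher amacrine array.

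Its relative Lgr4 was measured in both groups without a difference that passed the test. Lgr4 had intensities of 1280 and 739 in amacrine samples, against 943 and 811 in bipolar samples, so the amacrine arrays lay on both sides of the bipolar arrays. The log2 fold change was 0.15 (95% confidence interval -0.48 to 0.78), and it turned to -0.24 without MP amacrine replicate 1. Lgr6 had 65.7 and 48.0 against 40.0 and 39.3, with both amacrine arrays higher and a log2 fold change of 0.38 (adjusted p = 0.344, limma).

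The ligands of these receptors were low or alike in the sorted cells. Rspo3 was the R-spondin that could be tested, with 72.7 and 77.8 in amacrine samples, against 94.2 and 58.2 in bipolar samples. Its log2 fold change was 0.01 (95% confidence interval -0.56 to 0.58). Rspo1 and Rspo2 were too dim to be tested, at 3.71 to 18.1. Of the ubiquitin ligases that R-spondins counteract, Znrf3 had intensities of 255 and 177 against 331 and 239, and the groups overlapped (log2 fold change -0.38, adjusted p = 0.465, limma). Rnf43 was too dim to be tested, at 8.21 to 22.7.

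**Figure D4:**
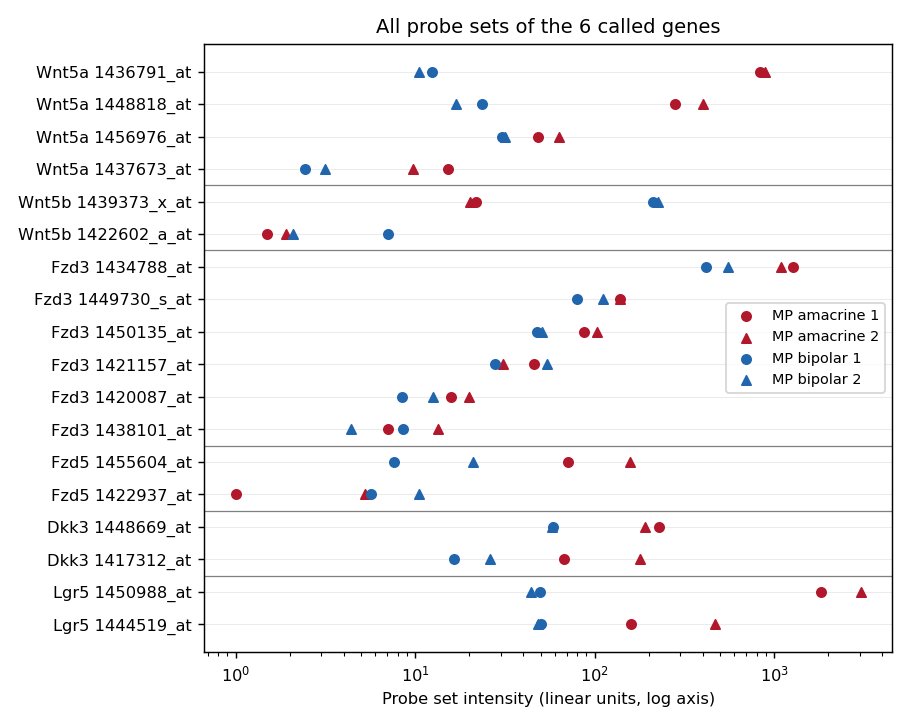
Intensity (linear units on a log axis) of every probe set of the 6 genes that differed, on the 4 arrays (red MP amacrine, blue MP bipolar, circles replicate 1, triangles replicate 2). The 4 Wnt5a, 2 Dkk3 and 2 Lgr5 probe sets all have both amacrine arrays on the right, while the dim Fzd5 probe set and 2 Fzd3 probe sets do not.

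Beta-catenin, Axin2 and the tested Tcf and Lef factors did not differ detectably between the groups. Ctnnb1, the gene of beta-catenin, had intensities of 3416 and 3289 in amacrine samples, against 3513 and 4227 in bipolar samples. The bipolar arrays were both higher by a small margin, with a log2 fold change of -0.20 (95% confidence interval -0.48 to 0.07, adjusted p = 0.364, limma). Tcf7l1 gave 0.04 and Lef1 -0.38 (adjusted p = 0.942 and 0.393, limma), and Tcf7l2 was too dim to be tested, at 13.4 to 21.5. Axin2, a feedback inhibitor widely used as a readout of beta-catenin signalling, had 46.5 and 60.2 against 63.3 and 59.2. These arrays overlapped, and the 95% confidence interval of the log2 fold change of -0.16 ran from -0.65 to 0.33. Axin2 lay close to the array medians of 44.5 to 47.2, and its 2nd probe set was dim, at 3.55 to 9.46. Lef1 was also near or below the medians, with 26.4 and 44.4 against 49.1 and 50.2. Signal this low limits what the Axin2 and Lef1 values can show. The 2nd probe sets of Lef1 and Tcf7l1 were dim as well. Over the 18 tested genes that were not called, the interval lay within -1 and 1 for 15.

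A separate list held 79 other genes of the pathway, of which 76 had a probe set of their own and 54 were tested. Of these, 4 were higher in MP amacrine and 9 in MP bipolar samples, against 6.54% and 6.92% of all tested genes, and the median log2 fold change was -0.06. The list was chosen with earlier results of these data known. Of the genes called, Wls, Dact2 and Ankrd6 passed the filter on dim signal through the bipolar arrays only. The genes tested were thus partly selected for a difference, here as well. Wls, the carrier that brings Wnt proteins to the cell surface, had intensities of 9.56 and 11.3 in amacrine samples, against 188 and 187 in bipolar samples. The bipolar arrays were higher on all 4 Wls probe sets, and the gene gave -2.95 (SE 0.20, adjusted p = 6.36e-05, limma), or -4.05 with an offset of 1. Porcn, the enzyme that attaches the lipid to Wnts, did not pass (0.18, adjusted p = 0.726, limma). Of the 9 other ligands on the list, 2 were tested and did not pass, Wnt8b at 0.04 and Wnt9b at -0.30 (adjusted p = 0.943 and 0.492, limma).

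Of 5 other secreted inhibitors tested 1 was called, higher in bipolar samples, against 6.92% of all tested genes in that direction. Of 6 targets and feedback genes 1 was called in each direction, against 6.54% (amacrine) and 6.92% (bipolar) of all tested genes. Counts this small show little about either role. Sostdc1, a secreted antagonist of Wnt and BMP signals, had 62.7 and 17.6 on the amacrine and 761 and 642 on the bipolar arrays (log2 fold change -3.80, SE 0.38, adjusted p = 4.12e-04, limma). Apcdd1, a membrane inhibitor of the pathway, had 481 and 163 against 1134 and 1446 and gave -2.12 (adjusted p = 0.0146, limma). Both bipolar arrays were above both amacrine arrays on 5 of its 6 probe sets. The call comes from a probe set with the suffix _x_at, and of the probe sets without it the brightest gave 0.05 and another -1.60 (adjusted p = 0.0827, limma over probe sets). Ccnd1, the gene of cyclin D1, was higher in amacrine cells, with 542 and 759 against 242 and 188 (1.52, SE 0.26, adjusted p = 0.00615, limma). Its other probe sets gave 0.48 and 0.88, and averaged over all 3 the difference did not pass (0.96, adjusted p = 0.0586, limma). The progenitor marker Hes5 given above was higher in the same samples, Sox2 did not pass (adjusted p = 0.0529, limma), and the part of such cells in the Ccnd1 value was not tested. Nkd1, another feedback gene, gave 0.44 and did not pass (adjusted p = 0.319, limma).

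Of the 4 tested nuclear cofactors of the Tle family, which repress with Tcf factors, 1 was higher in amacrine and 1 in bipolar samples. Over all tested genes the shares were 6.54% and 6.92%. Tle3 had 987 and 1038 on the amacrine and 433 and 429 on the bipolar arrays (1.20, SE 0.20, adjusted p = 0.00513, limma). Tle2 had 50.05 and 35.8 against 398 and 364 (-2.76, SE 0.23, adjusted p = 1.55e-04, limma). For each of these genes the groups were clearly apart. Tle4 gave 0.74 and Tle1 -0.03, and neither passed (adjusted p = 0.125 and 0.979, limma). Bcl9, a partner of beta-catenin, gave -0.80 (adjusted p = 0.0421, limma), which did not pass without MP amacrine replicate 2 (adjusted p = 0.12), MP bipolar replicate 1 (0.22) or MP bipolar replicate 2 (0.196).

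In the relay inside the cell, Btrc, a ubiquitin ligase subunit that recognises beta-catenin, was the 1 of 13 tested genes called, against 13.5% of all tested genes. It had 426 and 447 on the amacrine and 982 and 1352 on the bipolar arrays (-1.37, SE 0.23, adjusted p = 0.00522, limma), and without MP bipolar replicate 2 its adjusted p was 0.0572. The other Btrc probe sets gave -0.68, -0.90, 0.34 and -1.09. Apc, in the same relay, was not called from its brightest probe set (0.36, adjusted p = 0.0775, limma). Its next probe sets gave 1.75 and 0.83 (adjusted p = 0.00337 and 0.0821, limma over probe sets). Of 12 tested planar cell polarity genes, which organise cells in the plane of a tissue, 3 were called, each higher in bipolar cells, against 6.92% of all tested genes in that direction. Prickle2 had 178 and 103 against 1796 and 2032 (-3.67, SE 0.28, adjusted p = 1.12e-04, limma). Ankrd6 had 24.03 and 9.79 against 134 and 207 (-2.51, SE 0.29, adjusted p = 9.64e-04, limma), and Dact2 had 10.2 and 6.61 against 62.9 and 56.6 (-1.64, SE 0.21, adjusted p = 0.00135, limma). Both Ankrd6 and Dact2 passed the filter on dim signal through the bipolar arrays only, which limits what their share of the 12 can show.

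The receptors Ryk and Reck were higher in amacrine cells by less stable margins. Ryk, a receptor for Wnt5a among others, gave 0.77 (adjusted p = 0.0445, limma) from 757 and 720 against 415 and 437. It did not pass with any 1 of the 4 arrays left out (adjusted p 0.0838 to 0.217), and its brightest probe set without the suffix _s_at or _x_at gave -0.34. Reck, a membrane protein that serves Wnt7a and Wnt7b, gave 1.48 (adjusted p = 0.0365, limma) from 480 and 1119 against 278 and 230. Without MP amacrine replicate 2, its higher amacrine array, it gave 0.88 (adjusted p = 0.0835, limma), and it also did not pass without MP bipolar replicate 1 (0.0709) or replicate 2 (0.146).

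**Figure D5:**
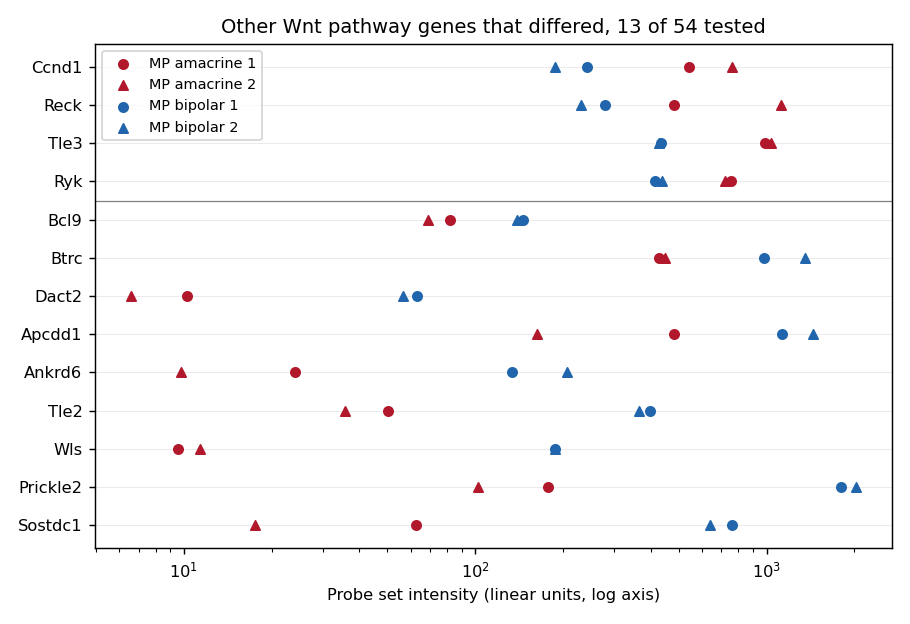
Intensity (linear units on a log axis) of the 13 other Wnt pathway genes that differed, on the 4 arrays (red MP amacrine, blue MP bipolar, circles replicate 1, triangles replicate 2). The line separates the 4 genes higher in amacrine cells, at the top, from the 9 higher in bipolar cells.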

How the data were processed

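The authors deposited 1 intensity per probe set and array for 45101 probe sets on 4 Affymetrix arrays. The scale is linear, and no source used here names the software that summarised and scaled the arrays. RNA was extracted from about 1000 sorted cells per replicate and amplified in 2 rounds, per the labels' protocols, and the depth of an array is limited by its signal.

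Intensities were used as log2(intensity + 16). The 64 control probe sets and probe sets annotated to several genes (932) or none (9160) were left out, and the probe set with the highest mean stood for a gene. Genes whose probe set exceeded the median of an array on 2 or more arrays were tested by limma 3.58.1 in R 4.3.3 (lmFit, eBayes with trend, 2 residual degrees of freedom), two-sided, with Benjamini-Hochberg adjustment over 11583 genes and a threshold of 0.05. The smallest two-sided exact permutation p of this design is 0.333. The fit was tested on simulated data.

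All 41 genes are accounted for. Of the other pathway genes, up to 8 called genes in each direction with the largest fold change were named. Bcl9, Porcn, Nkd1, Wnt8b, Wnt9b, Tle1, Tle4, Apc and Sox2 were added after their values were seen. So were the called markers of Müller glia, progenitors, horizontal cells, microglia, vessels, cones, ganglion cells and pigment epithelium. The genes, lists and tests were chosen with earlier results of these data known. The alternatives covered scaling, filter, offset, probe set choice, variance model, array weights, threshold, replicate block and left-out replicates.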

Additional observations from a re-analysis of the deposited data

How the results depend on the processing

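With each of the 4 arrays left out in turn, the 6 genes kept the direction of their difference. These fits kept the probe sets and tested genes of all 4 arrays, so the left-out array had still helped to select the genes. Wnt5a, Wnt5b and Fzd5 had passed the filter through 1 group only. The 6 calls were kept under quantile, loess and median scaling, offsets of 1 and 64, both other variance models, array weights and a threshold of 0.01. Called genes over the whole array numbered 785 without the filter and 883 at a threshold of 0.01, and 917 (without MP bipolar replicate 2) to 1939 with an array left out. Genes higher in amacrine cells numbered 3 with probe sets averaged, where Fzd3 was lost and Fzd5 was not tested. Genes higher in bipolar cells numbered 0 without _x_at and _s_at probe sets, where Wnt5b was not tested (limma, 0 also with an unadjusted p under 0.05). Other pathway genes higher in amacrine cells numbered 2 without the filter, with probe sets averaged and at the threshold of 0.01, and 2 to 3 with an array left out.

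The replicate numbers do not pair the samples by litter in the labels, and same-numbered arrays did not deviate together over genes (r = -0.0415). With the replicate block 1932 genes were called, among them 5 and 1 of the genes described.

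At a threshold of 0.10 Wnt7b and Lrp6 also passed. Small differences that were not called changed sign with an array left out. The lowest and highest values were -0.59 and 0.001 for Wnt4, -0.013 and 0.496 for Wnt10a, -0.134 and 0.099 for Wnt11, -0.061 and 0.126 for Dkk1, -0.238 and 0.542 for Lgr4, -0.273 and 0.297 for Rspo3 and -0.077 and 0.156 for Tcf7l1. Rspo3 gave -0.005 after quantile and -0.003 after median scaling, and Dkk1 gave -0.019 with probe sets averaged. Without _x_at and _s_at probe sets Ryk gave -0.343 and Apcdd1 0.052. The cause was not tested.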
